A study of Mus musculus with 14 samples.

Results

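The master transcription factors of fat cell differentiation (Pparg, Cebpa and Cebpb), the genes of 6 proteins that fat cells secrete (Adipoq, Lep, Retn, Cfd, Rarres2 and Rbp4) and Nnat, an imprinted gene for a small membrane proteolipid, were examined in brown fat of mice that lack Lrpprc. They were chosen by name, with earlier results of these data known, to ask whether the knockout tissue took on features of white fat. They were matched to the Ensembl identifiers of the expression table: 10 of 35275 genes. All 10 passed the filter on low values, which left 13079 genes for testing. The protein made from Lrpprc binds RNA and stabilises messenger RNA in mitochondria.

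RNA sequencing was done on brown adipose tissue of 14 C57BL/6 mice aged 8 weeks. All animals carried floxed Lrpprc alleles (LrpprcFF). Knockouts also carried Ucp1-Cre, which deletes the gene in cells that express Ucp1, the uncoupling protein of brown and beige fat cells, and controls did not. At room temperature (22 °C) there were 4 knockouts and 4 controls, and at thermoneutrality (30 °C) 3 knockouts and 3 controls. The labels name brown adipocytes, but RNA came from homogenised tissue, so cells in which the Cre transgene is silent are included. In such bulk RNA, fewer fat cells and less RNA per fat cell cannot be told apart.

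Fat cells differentiate when C/EBP-beta switches on C/EBP-alpha and PPAR-gamma, which then keep each other and the genes of mature fat cells active. PPAR-gamma and C/EBP factors are shared by white and brown fat cells. Adiponectin (Adipoq) and adipsin (Cfd) are made by both, while leptin (Lep) and resistin (Retn) are known chiefly as products of white fat. Brown fat is said to whiten when it stores more lipid and loses thermogenic genes, as it does in warmth.

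Values are FPKM, fragment counts divided by transcript length and library depth, multiplied by a factor per library that puts the median nuclear gene on a common level ("normalised FPKM"), and can be compared between genes because they are per length. The recovered depth was 15900000 to 21300000 fragments per library, to the nearest 100000, and the lowest value of any of the 10 genes in any library (Lep in a knockout at 22 °C) stood for about 106 fragments. Lrpprc itself averaged 42.4 normalised FPKM in controls and 10.4 in knockouts at 22 °C (log2 difference -1.86, SE 0.21, limma adjusted p = 0.000373), and 31.7 and 6.97 at 30 °C (-2.06, SE 0.25, adjusted p = 0.000379), with no overlap. Brown adipocyte markers (6 listed) were present in every library. They summed to 6251 to 9389 normalised FPKM in controls and 5356 to 8802 in knockouts at 22 °C, where 0 of 6 were called. At 30 °C they summed to 4505 to 6148 in controls and 2057 to 2909 in knockouts. There 3 of 6 were called lower in knockouts (median log2 difference -0.66). Macrophage markers (12 listed) summed to 70.1 to 105 normalised FPKM in controls and 116 to 243 in knockouts at 22 °C, and to 149 to 480 and 715 to 2022 at 30 °C, where 11 of 12 were higher in knockouts (median log2 difference 1.85). Skeletal muscle markers ranged from 21.3 to 13150 over the libraries, and 0 of 8 were called in either knockout comparison. Their median log2 difference was -0.71 at 22 °C and 1.9 at 30 °C. The part of these cells in the results below was not tested beyond the values given.

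Of the 10 genes, Adipoq was lower in knockouts at both temperatures and Cfd was lower at 30 °C, and no member was called higher in either knockout comparison. A call is a limma adjusted p under 0.05, adjusted by Benjamini-Hochberg over all 13079 genes. At 22 °C 1 of 10 was called lower, against 1.06% of all genes tested, and 0 of 10 higher, against 0.91%. At 30 °C 2 of 10 were called lower, against 5.29% of all genes, and 0 of 10 higher, against 8.82%. For the mean of both knockout effects, which uses all 14 animals, Adipoq and Cfd were again called lower (2 of 10, against 7.57% lower and 10.7% higher of all genes). The median log2 difference of the 10 genes was -0.28 at 22 °C and -0.26 at 30 °C, beside 0.00 and 0.06 for all genes. The difference between the knockout effects at both temperatures was called for 0 of 10 members and 0.0% of all genes with limma. At an unadjusted p under 0.05 it held for 3 members (Pparg, Cebpb and Rbp4) and for 1692 of all genes, with a smallest adjusted p of 0.0522. Temperature and sex cannot be told apart in this difference, because sex-linked RNA differed between the animals of both temperatures (below). Log2 differences are on the scale of log2(normalised FPKM + 1), so the folds of weakly expressed genes are understated.

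**Figure D1:**
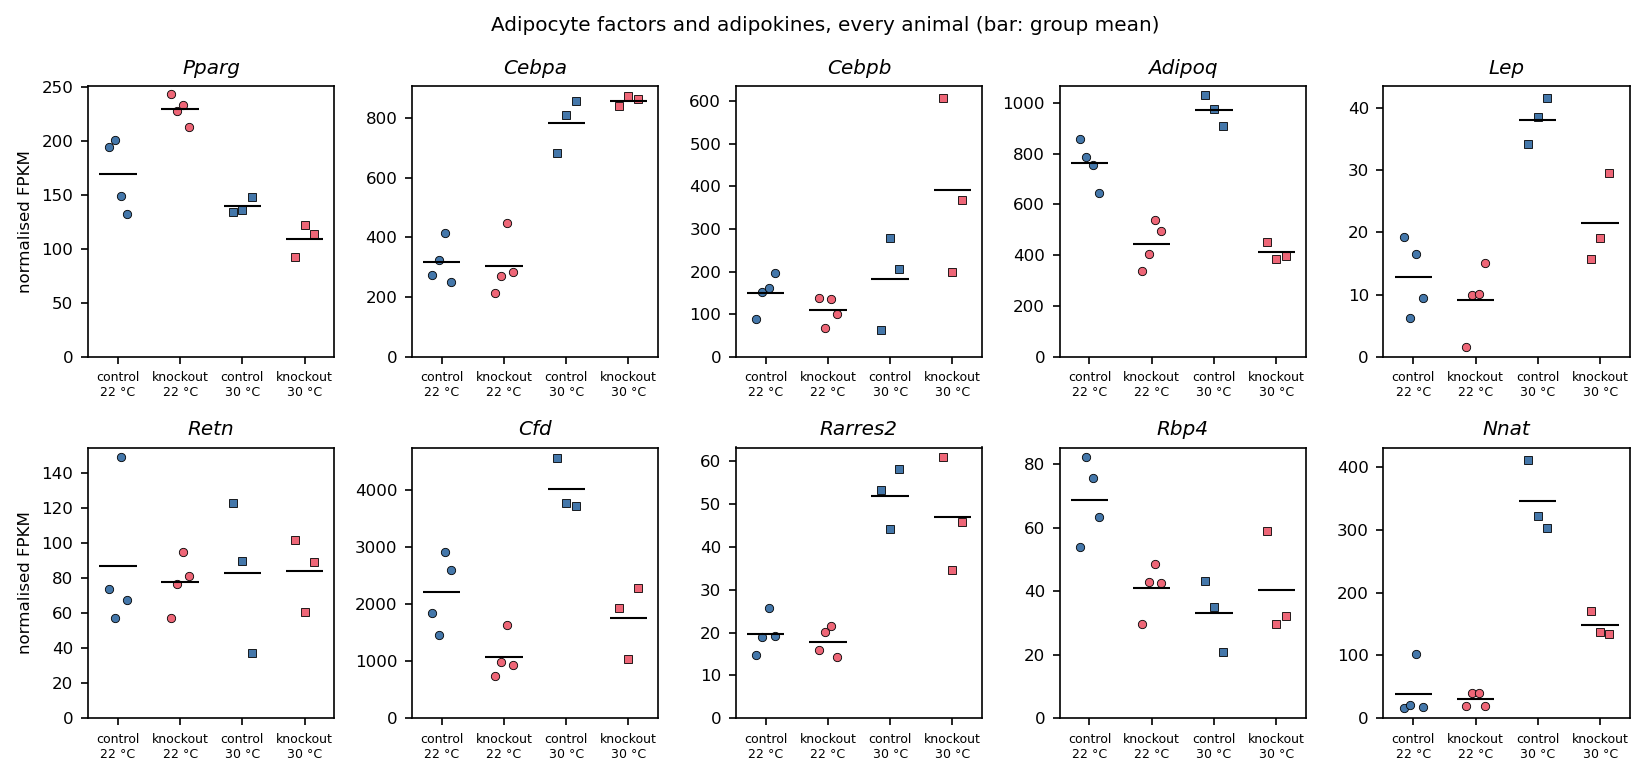
Normalised FPKM (linear axis from 0) of the 10 genes in every animal, with circles for 22 °C, squares for 30 °C, blue for controls, red for knockouts and a bar at the group mean. Adipoq was lower in every knockout than in every control of its temperature (at most 540 against at least 647 at 22 °C), while Cebpa, Rarres2 and Nnat separated by temperature.

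Pparg, the nuclear receptor that is required for fat cell differentiation, stood at 195, 201, 149 and 132 normalised FPKM in the 22 °C controls and at 244, 228, 233 and 213 in the 22 °C knockouts. At 30 °C it stood at 134, 136 and 148 in controls and at 92.7, 122 and 114 in knockouts. Every knockout was above every control at 22 °C and below every control at 30 °C. The log2 difference was 0.46 at 22 °C (SE 0.13, 95% interval 0.17 to 0.75, adjusted p = 0.106) and -0.36 at 30 °C (SE 0.16, 95% interval -0.69 to -0.02, adjusted p = 0.15), and neither passed the threshold. With FPKM as deposited the 22 °C difference was 0.76 (adjusted p = 0.00390), and with libraries scaled to the same nuclear total it was 0.60 (adjusted p = 0.0428), both past the threshold. These 2 settings also raised the median log2 difference of all genes, to 0.24 and 0.12. Without the 2 controls with identifiers that begin with R, which held the lowest Pparg levels at 22 °C, the Pparg difference was 0.21 (adjusted p = 0.333). The difference between the effects at 22 and 30 °C was 0.81 (95% interval 0.37 to 1.25, unadjusted p = 0.00158, adjusted p = 0.185).

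Cebpa, the C/EBP factor of mature fat cells, stood at 276, 324, 416 and 249 normalised FPKM in controls and at 214, 269, 448 and 285 in knockouts at 22 °C. At 30 °C controls had 683, 810 and 858 and knockouts 839, 874 and 862. Knockouts and controls overlapped at both temperatures, and all 30 °C animals lay above all 22 °C animals. The knockout difference was -0.08 at 22 °C (95% interval -0.52 to 0.36, adjusted p = 0.884) and 0.14 at 30 °C (95% interval -0.37 to 0.64, adjusted p = 0.750). At 22 °C it was 0.22 with FPKM as deposited, where the median of all genes was 0.24.

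Cebpb, the C/EBP factor that acts early in differentiation and is also induced by stress and inflammation, stood at 88.5, 152, 160 and 197 in controls and at 137, 66.9, 135 and 101 in knockouts at 22 °C. At 30 °C controls had 62.9, 279 and 207 and knockouts 608, 199 and 368. The groups overlapped at both temperatures, and the 3 highest levels of any animal included 2 knockouts at 30 °C. The log2 difference was -0.44 at 22 °C (95% interval -1.40 to 0.53, adjusted p = 0.690) and 1.20 at 30 °C (SE 0.52, 95% interval 0.08 to 2.31, adjusted p = 0.146). The 30 °C difference was 1.5 with FPKM as deposited (adjusted p = 0.0382), where the median of all genes was 0.31. The Cebpb difference at 30 °C was 0.81 without the knockout with 608 (adjusted p = 0.438) and 0.56 without the control with 62.9 (adjusted p = 0.473). Cebpb shares 312 exon bases with Tmem189 on the opposite strand, and whether counting used the strand is not given in the sources used here. At 30 °C Tmem189 stood at 10.96, 13.5 and 13.7 in controls and at 27.7, 15.8 and 19.5 in knockouts, without overlap, and was called higher (log2 difference 0.65, adjusted p = 0.0196). The knockouts of both temperatures had the same order for Tmem189 as for Cebpb, and the controls of either temperature did not. The part of the shared exon bases in the Cebpb levels was not tested. The library with the highest Cebpb also had the highest summed macrophage markers (2022), and whether these moved Cebpb was not tested.

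Adipoq, the gene of the insulin-sensitising hormone adiponectin, stood at 859, 788, 755 and 647 normalised FPKM in controls and at 337, 406, 540 and 497 in knockouts at 22 °C. At 30 °C it stood at 1032, 978 and 908 in controls and at 452, 386 and 398 in knockouts. At both temperatures every knockout lay below every control, and the knockouts of both temperatures overlapped with each other. The group means ± SD were 762 ± 88.4 (n = 4) and 445 ± 91.2 (n = 4) at 22 °C, and 973 ± 62.5 (n = 3) and 412 ± 35.6 (n = 3) at 30 °C. Adipoq was 1.73-fold lower at 22 °C (log2 difference -0.79, SE 0.14, adjusted p = 0.0161) and 2.36-fold lower at 30 °C (-1.24, SE 0.17, adjusted p = 0.000872). Over both temperatures the mean effect was -1.02 (SE 0.11, adjusted p = 0.000124), and it passed in all 21 alternatives run (-1.08 to -0.71). The 22 °C call was lost with quantile normalization (-0.50, adjusted p = 0.117), with the 22 °C groups fitted alone (adjusted p = 0.0711), without the control with 859 (-0.73, adjusted p = 0.0541) and without the knockout with 406 (-0.75, adjusted p = 0.0662). The effects at both temperatures differed by 0.45 (95% interval -0.03 to 0.92, adjusted p = 0.421).

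Cfd, the gene of adipsin, the serine protease that starts the alternative complement pathway, ranked 10 among all genes by mean in 30 °C controls and 21 in 22 °C controls. It stood at 1838, 1460, 2924 and 2608 normalised FPKM in controls and at 750, 991, 1640 and 942 in knockouts at 22 °C. At 30 °C it stood at 4557, 3777 and 3729 in controls and at 1939, 1047 and 2280 in knockouts. At 22 °C the highest knockout (1640) reached into the control range, and at 30 °C the groups did not overlap. Cfd was 2.40-fold lower at 30 °C (log2 difference -1.26, SE 0.34, adjusted p = 0.0253). At 22 °C the difference was -1.04 (SE 0.29, 95% interval -1.67 to -0.41, adjusted p = 0.0883) and missed the threshold, which it passed without the knockout with 1640 (-1.26, adjusted p = 0.0403). The mean effect was -1.15 (SE 0.22, adjusted p = 0.00434); it passed in each of the 14 fits that left out an animal and missed the threshold with quantile normalization (-0.60, adjusted p = 0.0823). The 30 °C call alone was less firm: 5 of 6 fits that left out an animal missed the threshold (adjusted p 0.0506 to 0.0843), as did quantile normalization (-0.54, adjusted p = 0.313) and no filter (adjusted p = 0.0644). The effects at both temperatures differed by 0.23 (95% interval -0.73 to 1.18, adjusted p = 0.869).

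**Figure D2:**
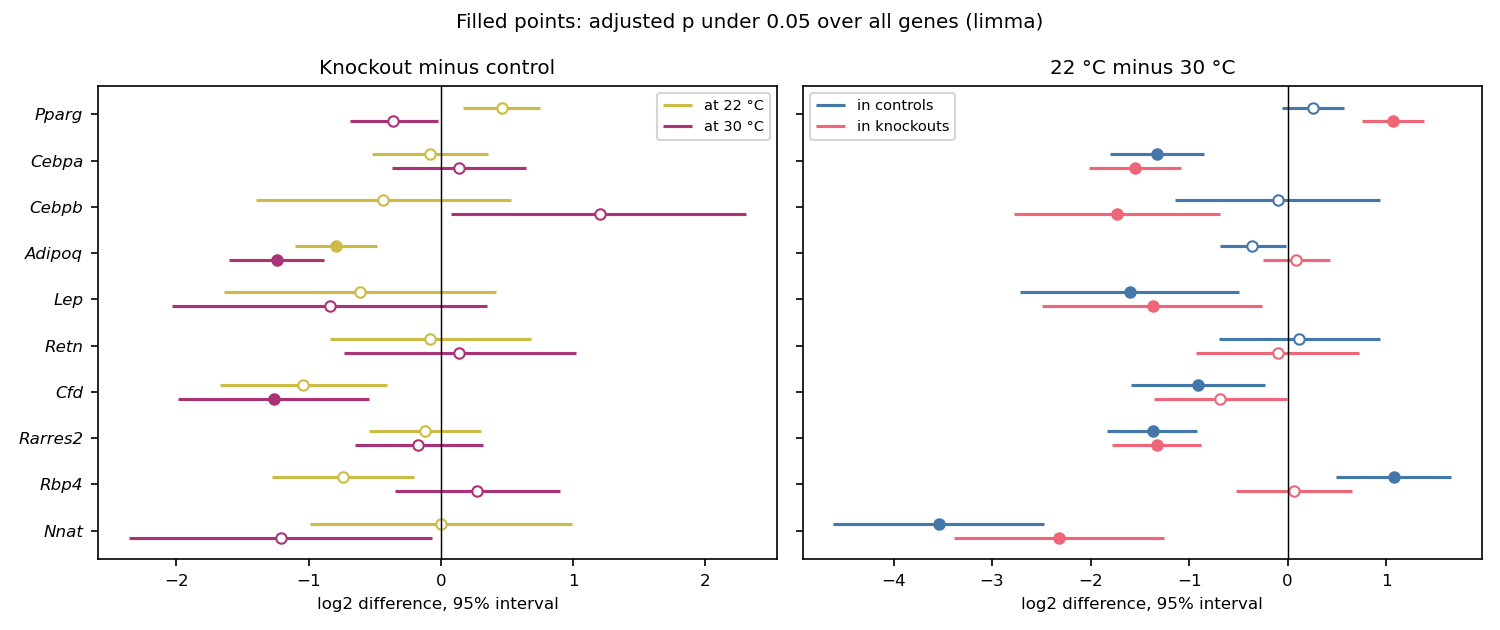
Log2 differences with 95% intervals for knockout minus control (left) and 22 °C minus 30 °C (right), each for both strata, with filled points for an adjusted p under 0.05 over all genes. Adipoq is filled at both temperatures on the left (-0.79 and -1.24) and Cfd at 30 °C (-1.26), and Nnat lies farthest from 0 on the right (-3.54 in controls).

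The promoters of Adipoq and Cfd are shown because these 2 genes fell, and that of Lep because it holds a palindromic C/EBP match beside a gene that was not called in knockouts. Each runs from 250 bases before to 50 bases after the annotated start, on the plus strand of GRCm38.p6, from RefSeq. Capitals mark matches on either strand to TTNNGNAA, the core of the C/EBP site. Adipoq lies at chr16:23146286-23146585, Cfd at chr10:79890603-79890902 and Lep at chr6:29059971-29060270.
Adipoq: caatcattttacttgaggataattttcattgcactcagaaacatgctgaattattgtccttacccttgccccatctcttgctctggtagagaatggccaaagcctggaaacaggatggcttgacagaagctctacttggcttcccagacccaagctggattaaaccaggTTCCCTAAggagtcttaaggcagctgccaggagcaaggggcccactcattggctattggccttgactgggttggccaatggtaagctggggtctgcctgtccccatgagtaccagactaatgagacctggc
Cfd: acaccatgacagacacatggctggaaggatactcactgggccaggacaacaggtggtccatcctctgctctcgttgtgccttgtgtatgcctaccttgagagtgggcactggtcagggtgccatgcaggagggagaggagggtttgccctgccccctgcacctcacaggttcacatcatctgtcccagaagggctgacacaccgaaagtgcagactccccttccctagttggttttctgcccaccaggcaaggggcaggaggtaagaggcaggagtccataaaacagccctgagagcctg
Lep: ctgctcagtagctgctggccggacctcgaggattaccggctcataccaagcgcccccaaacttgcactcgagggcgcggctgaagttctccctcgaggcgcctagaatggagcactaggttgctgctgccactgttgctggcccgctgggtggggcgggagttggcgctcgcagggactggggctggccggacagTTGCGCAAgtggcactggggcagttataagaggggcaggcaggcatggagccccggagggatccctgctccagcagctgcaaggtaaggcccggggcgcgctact
The Adipoq match lies 81 to 74 bases before the start and the Lep match 55 to 48 bases before it, and the Cfd window holds none. Windows were found for 9 of the 10 genes, Rarres2 being the exception, and for Pparg and Rbp4 more than 1 start is annotated, which gave 12 windows. TTNNGNAA was in 6 of these 12 and in 40.7% of all 32851 windows of this length. TGATGNAA, the core of the element bound by C/EBP and ATF factors together, was in 1 (an Rbp4 window) and in 3.97% of all. The direct repeat bound by PPAR-gamma with RXR, searched as 2 copies of AGGNCA with 1 base between them, was in 0 of 12 and in 0.381% of all. Of the 2 genes that fell, 1 had a C/EBP match in its window.

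Lep, the gene of the satiety hormone leptin, stood at 19.2, 6.22, 16.6 and 9.48 normalised FPKM in controls and at 1.54, 9.89, 10.2 and 15 in knockouts at 22 °C. At 30 °C it stood at 34.2, 38.5 and 41.5 in controls and at 15.7, 19.1 and 29.5 in knockouts. All 3 knockouts lay below all controls at 30 °C, the groups overlapped at 22 °C, and all but the lowest 2 knockouts at 30 °C lay above every 22 °C animal. The log2 difference was -0.84 at 30 °C (95% interval -2.03 to 0.35, adjusted p = 0.352) and -0.61 at 22 °C (95% interval -1.64 to 0.42, adjusted p = 0.583; -0.04 without the knockout with 1.54). Neither passed, and both estimates lay below 0. The interval at 22 °C still allows a rise of up to 0.42 and that at 30 °C of up to 0.35.

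Retn, the gene of resistin, stood at 74.0, 57.6, 149 and 67.4 in controls and at 57.1, 76.9, 95.2 and 81.5 in knockouts at 22 °C, and at 123, 89.7 and 37.1 in controls and 102, 60.7 and 89.5 in knockouts at 30 °C. All 4 groups overlapped. The differences were -0.08 at 22 °C (95% interval -0.84 to 0.68, adjusted p = 0.937) and 0.14 at 30 °C (95% interval -0.73 to 1.02, adjusted p = 0.858), and their signs changed between alternatives. Summed skeletal muscle markers at 30 °C were 13150, 4422 and 21.3 in controls and 8267, 1963 and 6400 in knockouts. Within each genotype this is the order of Retn at 30 °C. At 22 °C the sums were 544, 419, 6310 and 3765 in controls and 518, 1094, 980 and 1364 in knockouts. Neither genotype had the order of Retn there, and the part of muscle was not tested.

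Rarres2, the gene of the chemoattractant chemerin, stood at 14.7, 19.0, 25.7 and 19.2 in controls and at 15.9, 20.0, 21.4 and 14.2 in knockouts at 22 °C, and at 53.3, 44.1 and 58.1 in controls and 60.8, 34.5 and 45.7 in knockouts at 30 °C. Genotypes overlapped at both temperatures, and every 30 °C animal lay above every 22 °C animal. The knockout difference was -0.12 at 22 °C (95% interval -0.54 to 0.30, adjusted p = 0.813) and -0.17 at 30 °C (95% interval -0.65 to 0.32, adjusted p = 0.685). With FPKM as deposited both turned positive (0.17 and 0.13), where the medians of all genes were 0.24 and 0.31. Rarres2 shares 892 exon bases with Lrrc61 on the opposite strand, which averaged 5.74 to 7.76 over the groups.

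Rbp4, the gene of the plasma carrier of retinol, stood at 54.1, 82.3, 75.8 and 63.3 in controls and at 29.6, 43.1, 48.6 and 42.7 in knockouts at 22 °C. At 30 °C it stood at 43.4, 35.0 and 20.8 in controls and at 59.1, 29.8 and 32.3 in knockouts. At 22 °C every knockout lay below every control, and the 22 °C controls lay above all other animals but the knockout with 59.1. The log2 difference was -0.74 at 22 °C (SE 0.25, 95% interval -1.28 to -0.20, unadjusted p = 0.0114, adjusted p = 0.162) and 0.27 at 30 °C (95% interval -0.35 to 0.90, adjusted p = 0.590), neither past the threshold. The effects differed by 1.01 in size (22 °C minus 30 °C -1.01, 95% interval -1.84 to -0.18, adjusted p = 0.292). Within each genotype at 30 °C, Rbp4 had the order of the summed skeletal muscle markers. At 22 °C it had that order in neither genotype, and the control with 82.3 had the lowest sum of its group (419). The part of muscle was not tested.

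Nnat, the gene of neuronatin, stood at 15.9, 21.5, 102 and 18.4 normalised FPKM in controls and at 20.0, 40.2, 41.0 and 20.0 in knockouts at 22 °C. At 30 °C it stood at 411, 321 and 303 in controls and at 171, 138 and 135 in knockouts. A single 22 °C control (102) stood far above the other 3, and at 30 °C every knockout lay below every control. The knockout difference was 0.00 at 22 °C (95% interval -0.99 to 0.99, adjusted p = 0.999) and 0.60 there without that control (adjusted p = 0.264). At 30 °C it was -1.21 (SE 0.53, 95% interval -2.36 to -0.07, adjusted p = 0.151) and missed the threshold, which it passed when the 30 °C groups were fitted alone (-1.26, adjusted p = 0.0155). The effects differed by 1.22 (95% interval -0.30 to 2.73, adjusted p = 0.506). Nnat lies within Blcap, on the opposite strand and without shared exon bases. Blcap averaged 40.6 and 47.5 at 22 °C and 105 and 82.5 at 30 °C in controls and knockouts.

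More of the 10 genes were called between the temperatures than between genotypes, and the same held for all genes. Of 13079 genes, limma called 5071 in controls and 6691 in knockouts between temperatures. Between genotypes it called 258 at 22 °C and 1845 at 30 °C. In knockouts the 6 of 10 members called between temperatures lay near the share of all genes. In controls 5 of 10 were lower at 22 °C than at 30 °C (Cebpa, Lep, Cfd, Rarres2 and Nnat), against 20.5% of all genes, and Rbp4 was higher, against 18.2%. In knockouts 5 of 10 were lower at 22 °C (Cebpa, Cebpb, Lep, Rarres2 and Nnat), against 29.3% of all genes, and Pparg was higher, against 21.8%. The median log2 difference of the 10 genes was -0.64 in controls and -1.01 in knockouts, beside -0.05 and -0.07 for all genes. Sex is not labelled, and the animals of the 2 temperatures differed in sex-linked RNA: the X-inactivation RNA Xist was at most 0.0139 in the 8 animals at 22 °C and 9.70 to 15.3 in the 6 at 30 °C, while the Y-linked gene Ddx3y was 16.3 to 23.9 and at most 0.0242. Temperature, sex and any other difference between these sets of animals cannot be told apart.

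The log2 difference (22 °C minus 30 °C) of Nnat was -3.54 in controls (SE 0.50, adjusted p = 0.000487) and -2.32 in knockouts (SE 0.50, adjusted p = 0.00204), or 11.6-fold and 5-fold lower. Without the control with 102 and the other control with an R identifier, the difference in controls was -4.14. Cebpa differed by -1.33 in controls (SE 0.22, adjusted p = 0.00104) and -1.55 in knockouts (SE 0.22, adjusted p = 0.000173). Rarres2 differed by -1.37 (SE 0.21, adjusted p = 0.000692) and -1.33 (SE 0.21, adjusted p = 0.000315). All 30 °C animals were above all 22 °C animals for these 3 genes. Lep differed by -1.60 in controls (SE 0.52, adjusted p = 0.0266) and -1.37 in knockouts (SE 0.52, adjusted p = 0.0401). Its call was lost in 6 of 15 alternatives in controls and in 7 of 14 in knockouts, where the estimate was -0.80 without the knockout with 1.54.

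Cfd differed by -0.91 in controls (adjusted p = 0.0352), a call lost in 6 of 15 alternatives, and by -0.69 in knockouts (adjusted p = 0.0829). Rbp4 was 2.11-fold higher at 22 °C in controls (1.08, SE 0.27, adjusted p = 0.00850) and differed by 0.07 in knockouts (95% interval -0.52 to 0.65, adjusted p = 0.853). Pparg was 2.10-fold higher at 22 °C in knockouts (1.07, SE 0.15, adjusted p = 0.000135), and in controls the difference was 0.26 (95% interval -0.06 to 0.57, adjusted p = 0.175), or 0.50 without the controls with R identifiers (adjusted p = 0.00605). Cebpb was lower at 22 °C in knockouts (-1.73, SE 0.48, adjusted p = 0.00942); without the knockout with 608 the call was lost (-1.35, adjusted p = 0.0555). In controls it differed by -0.10 (95% interval -1.14 to 0.94, adjusted p = 0.888). Adipoq differed by -0.36 in controls (95% interval -0.69 to -0.02, adjusted p = 0.0852) and 0.09 in knockouts (95% interval -0.25 to 0.43, adjusted p = 0.645), and Retn by 0.12 and -0.10 (adjusted p = 0.826 and 0.832). The temperature differences also followed GC content across genes: Spearman's rho was -0.57 in controls and -0.49 in knockouts over 13014 genes, which are not independent. Cebpa, Cebpb, Cfd, Rbp4 and Nnat belong to the tenth of genes richest in GC, whose median difference was -0.52 in controls and -0.75 in knockouts. For the knockout differences rho was 0.06 at 22 °C and 0.12 at 30 °C.

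Ratios within a library need no scaling, and they are given as a description without a test. A ratio moves when either of its genes does. Relative to Adipoq, Retn was at 4.09 to 11.9% of the Adipoq FPKM in 30 °C controls and 15.8 to 22.6% in 30 °C knockouts. Rarres2 was at 4.51 to 6.40% and 8.96 to 13.5%, and Rbp4 at 2.30 to 4.2% and 7.73 to 13.1%. These 3 ratios did not overlap between genotypes at 30 °C, where Adipoq itself was lower in knockouts. Retn, Rarres2 and Rbp4 themselves differed by 0.14, -0.17 and 0.27 there, and none was called. The ratios of Nnat and Ucp1 to Adipoq did overlap there (knockout minus control of the mean log2 ratio 0.02 and -0.07). Lep was at 3.31 to 4.57% of Adipoq in 30 °C controls and 3.46 to 7.43% in knockouts, and at 0.790 to 2.24% and 0.458 to 3.02% at 22 °C, overlapping at both. The ratio of Cfd to Adipoq overlapped between genotypes at both temperatures, with a mean log2 ratio of 1.49 in controls and 1.24 in knockouts at 22 °C and of 2.04 and 2.02 at 30 °C.

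Plin1, the lipid droplet coat protein, was used as another denominator. It was not called in knockouts, but its levels did not overlap between genotypes: every knockout was above every control at 22 °C (0.43, unadjusted p = 0.0218, adjusted p = 0.217) and below every control at 30 °C (-0.18, adjusted p = 0.603). Ratios to Plin1 contain these differences with the sign turned, as ratios to Adipoq contain those of Adipoq. Relative to Plin1 the knockout minus control difference of the mean log2 ratio was -1.19 for Lep, -0.52 for Retn, -0.56 for Rarres2 and -1.19 for Rbp4 at 22 °C, where the animals did not overlap for Rbp4. At 30 °C it was -0.70 for Lep, 0.32 for Retn, 0.01 for Rarres2 and 0.46 for Rbp4, all overlapping. At 22 °C the differences against Adipoq had been positive for these 4 genes (0.04 for Lep, 0.71 for Retn, 0.67 for Rarres2 and 0.04 for Rbp4), and all 4 were negative against Plin1. At 30 °C Retn, Rarres2 and Rbp4 kept a positive sign and Lep (0.36 against Adipoq) did not. Cfd was lower relative to Plin1 in every knockout (-1.47 at 22 °C and -1.09 at 30 °C). Nnat and Ucp1, whose ratios to Adipoq overlapped at 30 °C, were lower relative to Plin1 in every knockout there (-1.04 and -1.13). At 22 °C their ratios to Plin1 overlapped between genotypes (-0.43 and -0.46). The mean log2 ratio of Cebpb to Cebpa was -1.11 in controls and -1.47 in knockouts at 22 °C, and -2.34 and -1.28 at 30 °C, with overlapping animals at both temperatures.

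**Figure D3:**
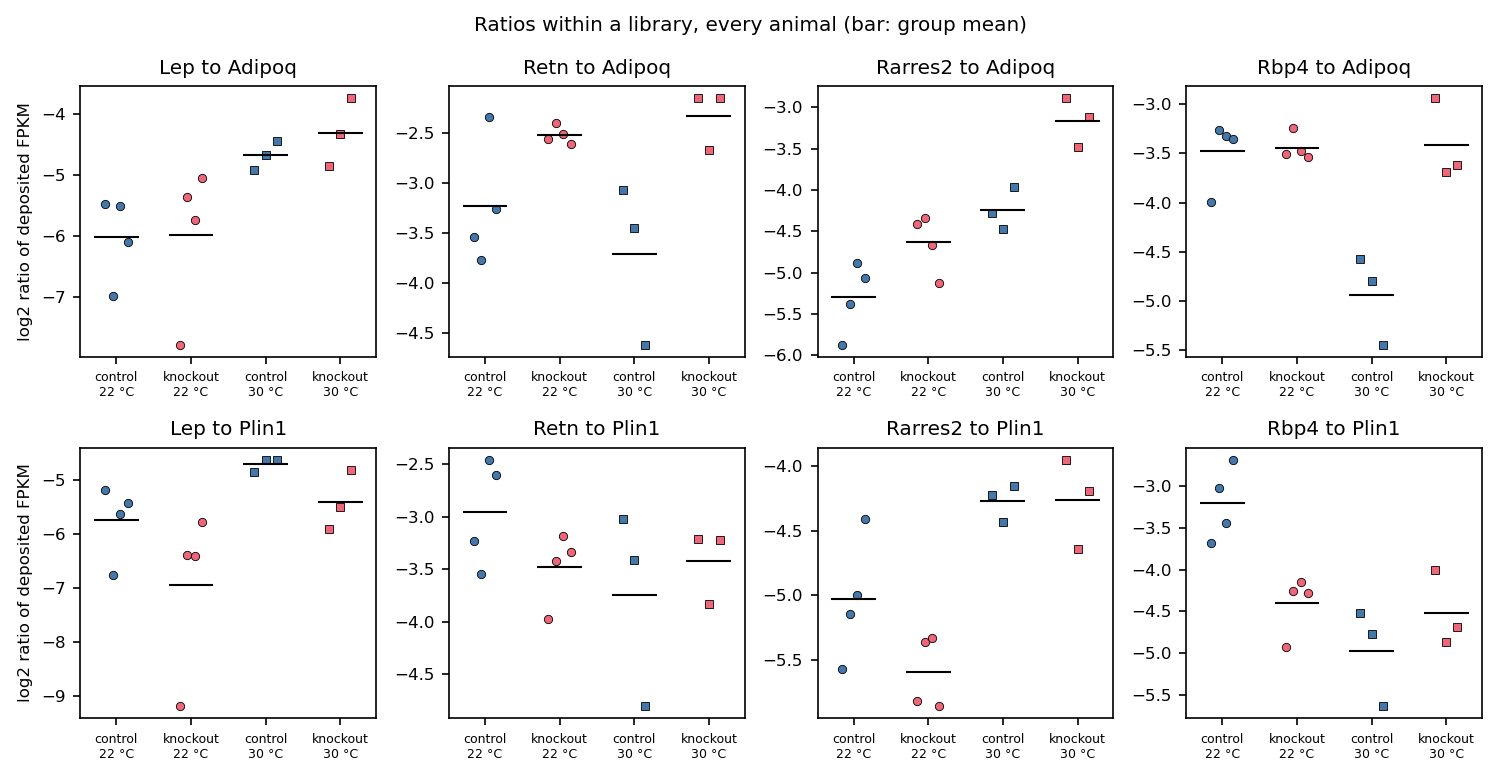
Log2 ratios of deposited FPKM of Lep, Retn, Rarres2 and Rbp4 to Adipoq (top) and to Plin1 (bottom) in every animal, with circles for 22 °C, squares for 30 °C, blue for controls, red for knockouts and a bar at the group mean. At 30 °C the ratios of Retn, Rarres2 and Rbp4 to Adipoq separate the genotypes (differences 1.39, 1.07 and 1.52), and those to Plin1 do not (0.32, 0.01 and 0.46).

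Genes around these members were taken from lists by function, chosen with earlier results of these data known. The counts therefore describe these lists and do not test them. The shares called among all genes, beside which the counts below stand, were 0.91% higher and 1.06% lower at 22 °C, and 8.82% higher and 5.29% lower at 30 °C. Partners and inhibitors of C/EBP and PPAR-gamma held the largest rises. Of 12 tested (13 listed), 2 rose at 22 °C and 4 at 30 °C and 0 fell, with a median log2 difference of -0.03 and 0.32. Trib3, a pseudokinase induced by stress, averaged 4.69 normalised FPKM in controls and 103 in knockouts at 22 °C (log2 difference 3.97, SE 0.37, adjusted p = 4.16e-05), and 9.16 and 112 at 30 °C (3.46, SE 0.43, adjusted p = 0.000449). Ddit3, the C/EBP family member CHOP that pairs with other C/EBP factors, averaged 31.1 and 155 at 22 °C (2.17, SE 0.26, adjusted p = 0.000641), and 49.5 and 118 at 30 °C (1.22, SE 0.30, adjusted p = 0.0186). For both genes every knockout was above every control of its temperature, and the 30 °C call of Ddit3 was lost in 3 of 13 alternatives. Klf2, a factor known to repress Pparg in preadipocytes and abundant in endothelium, rose at 30 °C from 51.5 to 340 (2.79, SE 0.50, adjusted p = 0.00425) and had -0.78 at 22 °C (adjusted p = 0.416). Summed endothelial markers at 30 °C were 296 to 303 in controls and 679 to 755 in knockouts (1 of 6 called higher, median log2 difference -0.26). Dlk1, an inhibitor of differentiation, was lower in the mean effect (-0.46, adjusted p = 0.0353) at levels of at most 2.59, and that call was lost in 12 of 20 alternatives.

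Of 13 other adipogenic factors tested (14 listed), 1 was called higher at 22 °C and 2 lower at 30 °C, with medians of -0.12 and -0.11. Cebpg, a C/EBP partner of ATF4, was higher at 22 °C (24.1 against 35.4, log2 difference 0.53, adjusted p = 0.0352). Klf15, which promotes Pparg expression, fell at 30 °C from 36.9 to 21.0 (-0.77, adjusted p = 0.0226), and Mlxipl, the carbohydrate sensor ChREBP, from 119 to 81.4 (-0.55, adjusted p = 0.0362). The call of Cebpg was lost in 9 of 16 alternatives, that of Mlxipl in 9 of 13 and that of Klf15 in 4 of 13.

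Of 16 PPAR-gamma target genes of fat cells, 1 fell at 22 °C and 6 fell at 30 °C, and 0 rose, with medians of -0.03 and -0.39 (all genes 1.06% lower at 22 °C, 5.29% lower and 8.82% higher at 30 °C, medians 0.00 and 0.06). Cidec, a lipid droplet fusion protein, fell from 732 to 443 at 22 °C (-0.71, SE 0.14, adjusted p = 0.0256) and from 696 to 301 at 30 °C (-1.21, SE 0.16, adjusted p = 0.000891). Its 22 °C call was lost in 7 of 16 alternatives. Adig, a small membrane protein of fat cells, fell at 30 °C from 396 to 182 (-1.10, adjusted p = 0.00114). Fabp4, the fatty acid carrier, fell from 8347 to 4681 (-0.85, adjusted p = 0.00896), and Pnpla2, the lipase that opens triglyceride breakdown, from 2284 to 1430 (-0.69, adjusted p = 0.00924); quantile normalization gave 1.49 and 0.03 for these 2 highly expressed genes. Pparg itself was not called at 30 °C, where its log2 difference of -0.36 lay close to the targets' median of -0.39. Summed markers of fat cells of any kind, which include Adipoq, Plin1, Fabp4, Cidec and Pnpla2, were 14800 to 18150 in controls and 10920 to 12540 in knockouts at 22 °C, and 12480 to 14680 and 6864 to 9116 at 30 °C. Fabp4 made up most of these sums: it averaged 12260 in controls and 8410 in knockouts at 22 °C, and 8347 and 4681 at 30 °C. Of the 6 markers, 2 were called lower at 22 °C and 4 at 30 °C. Plin1 averaged 650 in controls and 853 in knockouts at 22 °C.

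Of 22 other secreted proteins of fat tested (25 listed), 1 fell at 22 °C. At 30 °C 6 rose and 3 fell, and the medians were -0.31 and 0.06. C1qtnf12, the adiponectin relative adipolin, fell at both temperatures: it averaged 87.3 in controls and 52.0 in knockouts at 22 °C (-0.74, SE 0.11, adjusted p = 0.00388) and 79.7 and 47.6 at 30 °C (-0.74, SE 0.13, adjusted p = 0.00323), without overlap. Angptl2, an angiopoietin-like protein, fell at 30 °C from 88.1 to 42.5 (-1.03, adjusted p = 0.00325), and Gpx3, the plasma glutathione peroxidase, was lower in the mean effect (-0.68, adjusted p = 0.00367), which quantile normalization turned to 0.19. Fst, the activin binder follistatin, rose at 30 °C from 1.96 to 9.42 (1.79, adjusted p = 0.00343), and Ccl2, a monocyte chemoattractant, from 3.03 to 10.1 (1.47, adjusted p = 0.00894). The 30 °C rises stood beside summed macrophage markers of 715 to 2022 in knockouts and 149 to 480 in controls, and their part was not tested.

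Of 7 receptors and carriers of the member proteins tested (12 listed), 0 were called at 22 °C with limma, and 1 had an unadjusted p under 0.05. At 30 °C 2 rose and 0 fell. C3ar1, the receptor of the complement fragment C3a, which is known from macrophages, rose from 0.857 to 6.08 (1.87, SE 0.28, adjusted p = 0.00157), and Cap1, described as a resistin receptor, from 39.3 to 55.8 (0.48, adjusted p = 0.0269), a call lost in 5 of 13 alternatives. The leptin receptor Lepr, the chemerin receptor Gpr1, the retinol transporters Stra6 and Stra6l, and Ttr, the plasma partner of RBP4, were under the filter.

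White and brown fat markers were counted as separate lists and were not tested against each other. Of 10 white fat markers tested (13 listed; Hoxc9, Hoxc10 and Tcf21 were under the filter), limma called 0 at either temperature and 0 in the mean effect. At an unadjusted p under 0.05 there were 0 at 22 °C, 1 at 30 °C and 1 in the mean effect. Their median log2 difference was -0.18 at 22 °C and 0.01 at 30 °C, and in the alternatives run, members of this list were called with FPKM as deposited at 30 °C (2, both higher) and in no other. In that setting the median log2 difference of all genes was 0.31. Of 18 brown fat markers 1 was called at 22 °C and higher, and 6 were called at 30 °C and lower, with medians of 0.09 and -0.43. Ucp1 was at 1308 to 3160 in controls and 1475 to 3358 in knockouts at 22 °C (-0.02, adjusted p = 0.982), and at 565 to 1073 and 269 to 361 at 30 °C (-1.31, SE 0.36, adjusted p = 0.0302). Its 30 °C call was lost in 6 of 13 alternatives, quantile normalization included (-1.04, adjusted p = 0.160). Cox8b, a muscle and brown fat subunit of cytochrome c oxidase, fell at 30 °C from 3120 to 1260 (-1.31, adjusted p = 0.00118), Slc29a1, a nucleoside transporter, from 63.6 to 27.9 (-1.10, adjusted p = 0.00427), and Cox7a1, another oxidase subunit, from 1618 to 859 (-0.93, adjusted p = 0.00574). Cidea, a lipid droplet protein of brown fat, fell from 1430 to 853 (-0.79, adjusted p = 0.0213), a call lost in 9 of 13 alternatives. With quantile normalization 2 of the 6 remained called. Ppargc1a, the coactivator that drives mitochondrial biogenesis, was higher at 22 °C (14.9 against 33.9, log2 difference 1.14, adjusted p = 0.0412) with overlapping groups, and that call was lost in 8 of 16 alternatives. In the difference between the knockout effects at 22 and 30 °C, the median was 0.77 for brown fat markers and 0.54 for PPAR-gamma targets, beside -0.05 for all genes, and 0 genes of either list were called (10 and 8 at an unadjusted p under 0.05). Temperature and sex cannot be told apart in these medians.

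**Figure D4:**
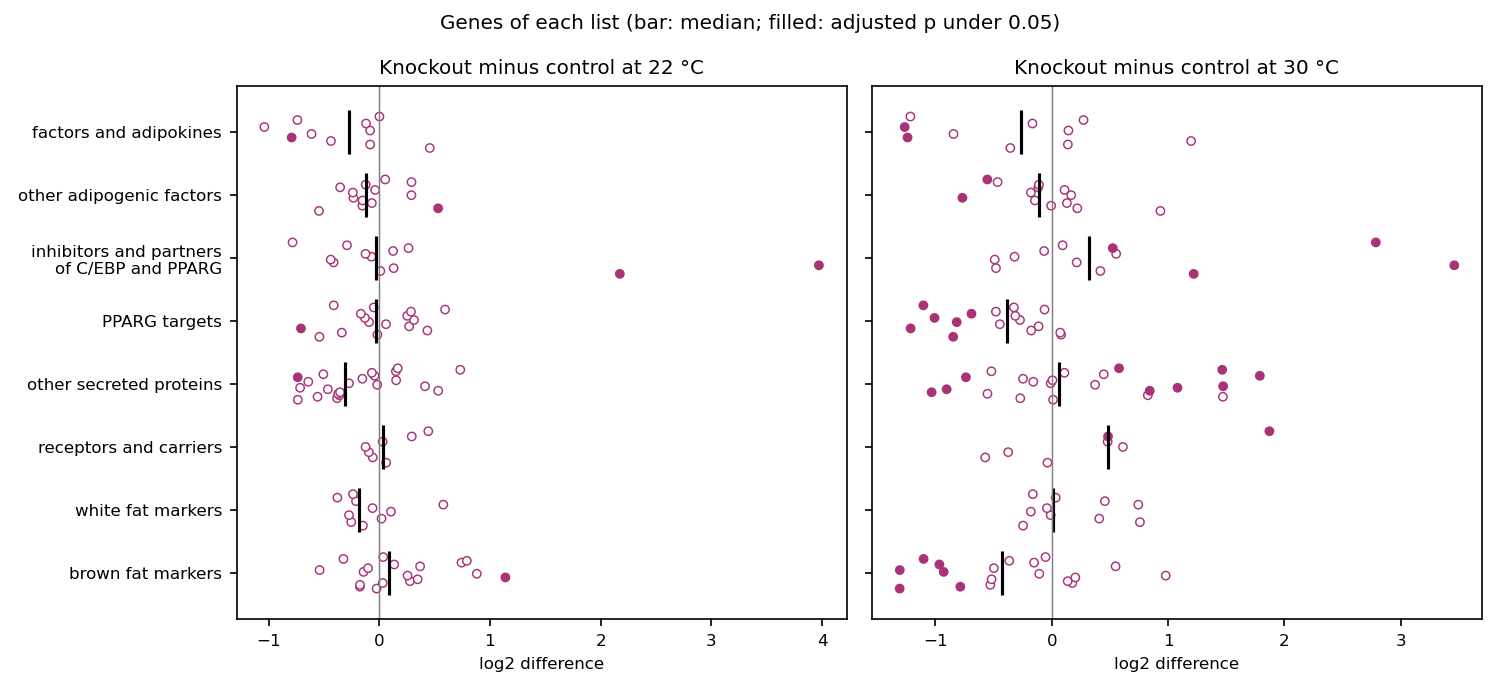
Log2 differences, knockout minus control, of the tested genes of each list at 22 °C (left) and 30 °C (right), with a bar at the list's median and filled points for an adjusted p under 0.05. At 30 °C the medians of PPAR-gamma targets (-0.39) and brown fat markers (-0.43) lie left of 0 and that of white fat markers (0.01) does not. Trib3 (3.97 at 22 °C, 3.46 at 30 °C), Ddit3 at 22 °C and Klf2 at 30 °C lie far to the right.

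The genes most like each member were sought for the 5 members with the widest range of group means, by the root mean square difference of centred log2 values over all 14 libraries, and are given for 4 of these 5. Nnat was most like Clu and Apcdd1 (0.67 and 0.70, beside a median of 1.62 over all genes), and Lep most like Gpx3 and BC051226 (0.58 and 0.61, median 1.07). Cfd was most like Apol6 and Lrg1 (both 0.32, median 0.85). Lrg1 averaged 96.6 in controls and 45.9 in knockouts at 22 °C and 132 and 70.6 at 30 °C. Cebpa was most like Olig1 and Zfp651 (0.24 and 0.26, median 0.78). These values are descriptions of shared pattern over libraries that also share temperature and genotype.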

How the data were processed

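Brown fat RNA of 14 mice was sequenced on an Illumina HiSeq, per the design text. The authors deposited gene values as FPKM. The submitters' processing notes name the build mm9; the aligner, counting tool, annotation and use of strand are not given in the sources used here. The table held 35275 Ensembl genes, of which 34490 matched GENCODE M21 (GRCm38), used for symbols, lengths, GC content and overlaps only; promoter windows came from RefSeq (GRCm38.p6). Depth was worked out from the smallest spacing of FPKM per gene, at which 90.8 to 92.5% of values came out as whole reads (tolerance 0.05 reads, genes with 1 transcript), and read numbers cover counting error only.

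Each library was scaled by its median ratio to the geometric mean over 10021 nuclear genes with an FPKM of 1 or more in all libraries; this multiplied control values by 1.06 to 1.22 and knockout values by 0.835 to 0.955. Genes that reached an FPKM of 1 in 3 or more libraries were kept. A mean per group was fitted to log2(normalised FPKM + 1) over all 14 libraries with limma 3.58.1 in R 4.3.3 (eBayes with a trend, Benjamini-Hochberg over 13079 genes), without a block, because the labels give no pairing. Groups came from the labelled genotype and temperature. Replicates are separate animals with their own identifiers, 2 of the 22 °C controls having an R identifier. The script was tested on simulated data.

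The members and gene lists were chosen with earlier results of these data known. Besides the 10 members, the text names at most 4 called genes per list and knockout comparison, by adjusted p, with Ucp1, Plin1 and Lrpprc, and the 2 genes most like each of 5 members (some genes so chosen are not reported here); receptors and white fat markers under the filter, and the genes overlapping members, are named outside that rule, as are 2 sex-linked genes seen to differ. Markers of Schwann cells, fibroblasts, smooth muscle, mesothelium and neutrophils were also summed: in the 30 °C comparison 0 of 4, 3 of 6, 0 of 4, 0 of 1 and 0 of 2 tested rose, and 1 mesothelial marker fell. At 22 °C 0 of these were called. Alternatives changed the pseudocount (0.1), the filter, the scaling, the groups fitted and the animals included. Tables were made with pandas 2.3.3 and numpy 2.4.6 in Python 3.11.15, and plots with matplotlib 3.10.9.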

Additional observations from a re-analysis of the deposited data

Results flagged for a closer look

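Pparg and Cebpb had knockout effects of opposite sign at the 2 temperatures. For Pparg every knockout lay above the control mean at 22 °C and below it at 30 °C (difference of the effects 0.81), and for Cebpb below it at 22 °C and above it at 30 °C (-1.63). The limma test of the difference did not pass for either (adjusted p = 0.185 and 0.335). The animals of the 2 temperatures also differed in sex-linked RNA, so temperature and sex cannot be told apart in these differences.

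In 50 groups of 4 animals (20 of single genes and 30 of ratios), the distance from the most extreme animal to its nearest neighbour was set against the whole range and compared with Dixon's 95% critical value, which chance exceeds in about 1 in 20 groups. It was exceeded 4 times. Nnat in the 22 °C controls gave 0.935, from the animal with 102, which also had the highest summed skeletal muscle markers of its group (6310). The control with the next highest sum (3765) had an Nnat level of 18.4, and the part of muscle was not tested. The log2 ratio of Rbp4 to Adipoq in the 22 °C controls gave 0.872, that of Ucp1 to Adipoq in the 22 °C knockouts 0.885, and that of Rbp4 to Plin1 in the 22 °C knockouts 0.836.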

How the results depend on the processing

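Over all genes, 258 calls at 22 °C (119 higher) became 130 without a filter, 3248 with FPKM as deposited (3167 higher), 460 with equal nuclear totals (385 higher) and 86 with the 22 °C groups alone, and 71 to 271 when an animal was left out. The 1845 calls at 30 °C (1153 higher) became 4571 as deposited (4280 higher), 1219 with the 30 °C groups alone (558 higher), 2638 with equal totals (2229 higher) and 1820 with quantile normalization (886 higher), and 817 to 2112 with an animal left out. The mean effect went from 2383 (1393 higher) to 6745 as deposited (6470 higher), 3861 with equal totals (3364 higher) and 2135 with quantile normalization (1034 higher), and 1549 to 2733. The 0 calls for the difference of the effects became 9 without a filter, 6 as deposited, 8 with quantile normalization and 10 with equal totals, and 0 to 135 with an animal left out (135 without the 30 °C knockout with 386 of Adipoq). Calls between temperatures in knockouts went from 6691 (2855 higher) to 4250 at a mean FPKM of at least 5, and to 7128 with quantile normalization (4201 higher); in controls from 5071 (2384 higher) to 4938 as deposited (1738 higher). As deposited, the median log2 difference of all genes went from 0.00 to 0.24 at 22 °C, from 0.06 to 0.31 at 30 °C and from 0.03 to 0.28 in the mean effect. Members called at 22 °C (1) became 2 as deposited and with equal totals, and 0 with quantile normalization and the 22 °C groups alone (0 to 2 with an animal left out). At 30 °C 2 became 1 without a filter and with quantile normalization (1 to 2), 3 as deposited (Cebpb added, higher) and 3 with the 30 °C groups alone (Nnat added, lower). In the mean effect 2 became 1 with quantile normalization and 3 as deposited, where Pparg was called higher. Signs at 22 °C turned for Cebpa (0.22 as deposited, 0.11 quantile, 0.06 equal totals; -0.29 to 0.07 with an animal left out), Retn (0.22, 0.02, 0.06; -0.24 to 0.21; 0.22 without the R controls), Rarres2 (0.17 as deposited, 0.02 equal totals, 0.07 without the R controls; -0.24 to 0.01), Ucp1 (0.28, 0.61, 0.12; -0.28 to 0.20) and Nnat (-0.27 to 0.60). At 30 °C they turned for Rarres2 (0.13 as deposited; -0.36 to 0.03), Plin1 (0.12 as deposited, 0.31 quantile), Retn (-0.34 to 0.50) and Rbp4 (-0.03 to 0.50), and with quantile normalization for Fabp4 (1.49, mean effect 1.77), Pnpla2 (0.03, mean effect 0.10) and Gpx3 (mean effect 0.19). The Cfd difference of effects gave -0.11 with quantile normalization (-0.11 to 0.45). Between temperatures, Retn gave -0.19 in controls without the R controls (-0.37 to 0.48) and -0.32 to 0.05 in knockouts, Cebpb -0.74 to 0.33 in controls, Adipoq -0.01 as deposited (-0.01 to 0.22) and Rbp4 -0.03 as deposited (-0.11 to 0.37) in knockouts. With Plin1 for Adipoq as the reference gene, ratios turned for Lep (-1.19 at 22 °C, -0.70 at 30 °C), Nnat (-0.43, -1.04), and at 22 °C Retn (-0.52), Rarres2 (-0.56), Rbp4 (-1.19) and Ucp1 (-0.46). The cause of these shifts was not tested. No paired analysis was possible because the labels give no replicate numbers that pair the animals. Among the members Lep had the fewest fragments in a library, about 106.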
